A study of Homo sapiens with 8 samples.

Results

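HepG2 cells treated with sodium pentaborate pentahydrate (NaB), curcumin (Cur) and piperine (Pip) were compared with HepG2 cells treated with NaB alone, which shows the transcripts that differed when Cur and Pip were added on top of NaB. NaB here is a boron salt and not sodium butyrate, which shares the abbreviation. Both cultures carried the wild-type genotype of the line and had been treated for 48 h, with NaB at 2500 µM in each, and the combination also held Cur at 30 µM and Pip at 6 µM. HepG2 is an established human liver cancer line, Cur is a polyphenol of turmeric, and Pip is a black pepper alkaloid that is often given with Cur. In the study, stocks of Cur and Pip were made in dimethyl sulfoxide and those of NaB in medium. A control with this solvent alone is not described, so Cur and Pip cannot be told apart from their solvent here. The series held 8 RNA-seq libraries, 1 per condition, from HepG2 and from cells labelled Hep3B. Untreated HepG2 cells and HepG2 cells given Cur and Pip without NaB are shown beside the comparison where they help, and the libraries labelled Hep3B, which received 1700 µM NaB, are named only where a result differs there. No condition had a second library, no test between conditions was run, and every difference compares 2 libraries. RNA was isolated in triplicate in the study, but whether the isolates were pooled is not stated in the sources used here.

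Each assembled transcript was given to the GENCODE gene on its strand in which 50% or more of its exonic bases lie, and the FPKM of its transcripts was summed for each gene. FPKM is a level per length of transcript and per depth of the library, so levels of different genes can be set side by side. The comparison covered 12508 genes that reached 1 FPKM in at least 1 of the pair, of 17250 genes listed in any of the 8 libraries, and all genes named below come from these. The difference was the log2 of (FPKM + 1) in the combination minus that after NaB, and a gene was called higher or lower when it was past 1.5 on this scale. This scale understates the change of genes with low FPKM.

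Cells that meet a stress or a growth signal first transcribe the immediate early genes, which need no new protein to be switched on and encode mostly short-lived transcription factors such as FOS, JUN and EGR1. These act with feedback inhibitors of the MAP kinase pathway, and, when amino acids run short or proteins misfold, with the ATF4 and CHOP programme and the chaperones of the endoplasmic reticulum (ER). Hepatocytes are known for another programme, the secretion of plasma proteins such as albumin, clotting factors, complement and apolipoproteins, which is held in place by factors such as HNF4A and CEBPA.

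Immediate early genes were the group that stood highest after the combination, and the promoter of EGR1, a zinc finger transcription factor of this group, is shown here because its serum response elements are the class of site through which such genes are known to be switched on. The sequence is that of RefSeq for GRCh38.p14, at chr5:138465229-138465528 on the plus strand, from 250 bases before to 50 bases after the start of the gene, with the serum response elements in capitals.
EGR1: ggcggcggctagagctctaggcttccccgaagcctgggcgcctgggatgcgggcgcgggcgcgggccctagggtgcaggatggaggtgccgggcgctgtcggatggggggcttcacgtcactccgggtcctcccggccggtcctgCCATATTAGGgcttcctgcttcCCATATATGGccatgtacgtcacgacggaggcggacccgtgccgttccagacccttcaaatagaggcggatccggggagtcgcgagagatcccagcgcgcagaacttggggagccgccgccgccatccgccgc
The capitals lie 105 and 83 bases before the start, and the element was searched on both strands. The element was in 1.29% of all 35116 promoters of this length, and of the 16 members of the group with a promoter sequence, 1 (EGR1) held it within these 300 bases. The AP-1 site TGANTCA was in 1 of the 19 promoters of the group and in 7.71% of all promoters.

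28735 transcripts were assembled after NaB and 33907 after the combination, from an estimated 30.5 M and 25.6 M fragments (M, mega). The combination library held more single-exon transcripts, 32.2% against 22.7% of the transcripts, and fewer of its transcripts were assigned to a gene, 70.5% against 80.1%. The part of these differences in the results was not tested. Because a gene can be split or missed in assembly, results were also computed by apportioned depth, in which the FPKM of all transcripts is spread over the exons of the main transcript of the gene by the share of its bases that they cover, and this value stands beside each named call that it did not share. Of 30 hepatocyte markers, 25 had an FPKM of at least 1 after NaB and 24 after the combination, which goes with the label of the line, and their summed level was 18490.0 and 8348 FPKM. All 24 markers listed in both libraries had a lower level after the combination. Few markers of other cells were seen. In the NaB and combination libraries in turn, 3 and 2 of 12 endothelial markers reached this level, 1 and 1 of 10 fibroblast markers and 4 and 3 of 12 leukocyte markers, with summed levels of 23.5 and 5.73 FPKM, 2.87 and 2.29 FPKM, and 521 and 264 FPKM. LYZ, which encodes lysozyme and was named after its values were seen, made up most of the leukocyte sum, at 513 FPKM after NaB and 258 FPKM after the combination.

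Adding Cur and Pip to NaB was accompanied by 1011 genes that were higher and 1415 that were lower, which were 8.08% and 11.3% of the 12508 genes compared, and the median over all genes was -0.06. Of these, 581 and 754 had no assigned transcript in the other library, and 280 and 429 of them were also past the threshold by apportioned depth. Among the 10650 genes listed in both libraries, 430 (4.04%) were higher and 661 (6.21%) lower, with a median of -0.04. Past the threshold by summed FPKM and also by apportioned depth, which is called here by both measures, were 237 (2.23%) higher and 486 (4.56%) lower genes. Group counts below are over members listed in both libraries and stand beside these 4.04% and 6.21%. The genes higher by both measures tended to be compact: the 201 protein-coding ones had a median of 5 exons and a gene span of 16906 bases, against 9 exons and 26481 bases for the 463 lower ones and 10 exons and 36056 bases for all 9891 listed in both.

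**Figure D1:**
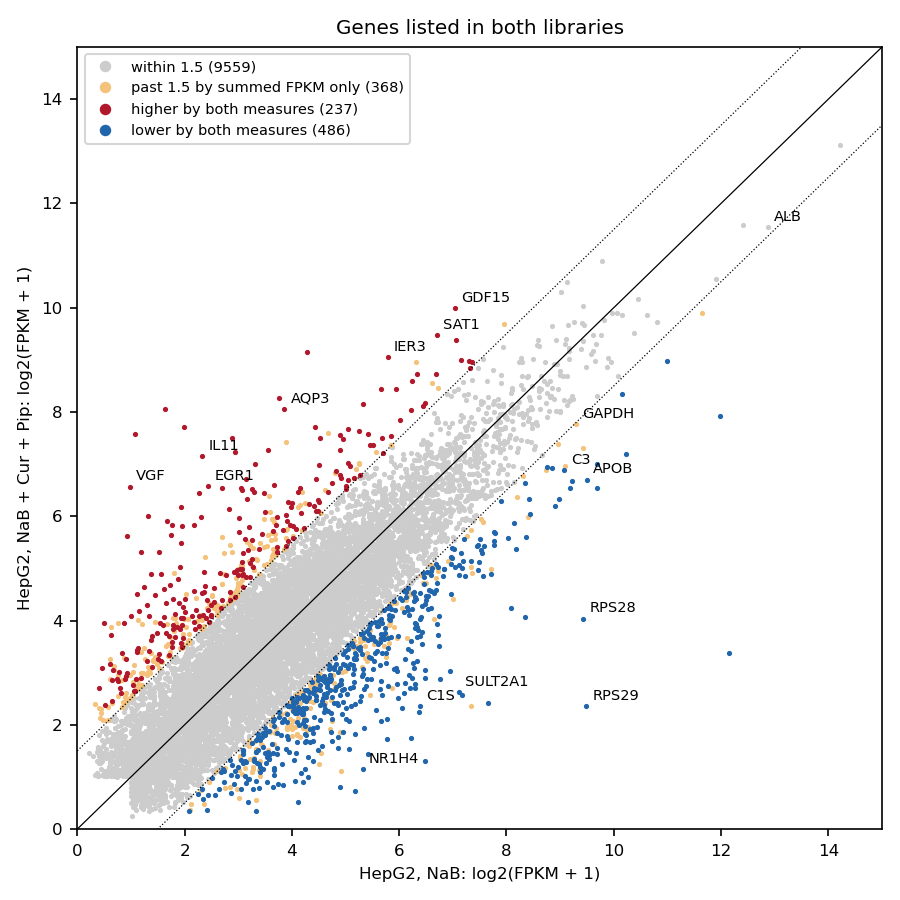
Level of each gene listed in both HepG2 libraries, as log2(FPKM + 1), after NaB (horizontal axis) and after NaB, Cur and Pip (vertical axis), with the line of equal levels and dotted lines at a difference of 1.5. The 237 red genes and the 486 blue genes are past the threshold by summed FPKM and by apportioned depth, with IL11, VGF and EGR1 among the red and APOB, C3, SULT2A1 and NR1H4 among the blue.

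The immediate early and AP-1 genes were higher as a group. Of 24 genes in the list, 21 were compared and 17 were listed in both libraries, and 14 of the 17 were higher, 0 lower, all 14 by both measures, with a median of 2.38 (2.36 by apportioned depth). EGR1 was at 4.43 FPKM after NaB and 94.7 FPKM after the combination, a difference of 4.14 with Cufflinks limits of 3.96 to 4.33. These limits cover the counting and assignment of reads within a library and not the spread between cultures. IER2, a nuclear protein named for its immediate early induction, was at 10.8 FPKM after NaB and 154 FPKM after the combination (3.71), and ATF3, a transcription factor induced by many stresses, at 3.49 FPKM after NaB and 55.9 FPKM after the combination (3.66). FOS, the AP-1 subunit that pairs with JUN proteins, was at 2.82 FPKM after NaB and 43.8 FPKM after the combination (3.55), and FOSB, a close relative, at 0.990 FPKM after NaB and 16.01 FPKM after the combination (3.10). JUN itself, the main DNA-binding partner in AP-1, stood just past the threshold at 37.7 FPKM after NaB and 110.0 FPKM after the combination (1.52), as did JUNB (14.3 and 45.2 FPKM, 1.60). JUND, the AP-1 subunit that is usually made at a steady level, was the only member with a value below 0 (155 and 89.7 FPKM, -0.78), and FOSL2 was at 12.5 and 13.01 FPKM (0.06). Within AP-1, the differences of FOS and FOSB were thus larger than those of the JUN subunits, a comparison with no test.

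The KLF zinc finger factors of the same list were higher as well. KLF6 was at 28.6 FPKM after NaB and 153 FPKM after the combination (2.38), KLF10 at 5.36 and 29.1 FPKM (2.24) and KLF4 at 1.17 and 9.84 FPKM (2.32). MAFF, a small MAF protein that pairs with factors of the antioxidant response, was at 7.06 FPKM after NaB and 51.1 FPKM after the combination (2.69). Among the remaining early genes, IER3, a regulator of survival, was at 54.1 and 530.4 FPKM (3.27), IER5 at 7.86 and 104 FPKM (3.57) and the orphan nuclear receptor NR4A1 at 3.59 and 13.2 FPKM (1.63). NR4A3, a related receptor, stayed within the threshold at 0.338 and 1.61 FPKM (0.96). The other 4 compared members were listed in a single library: ARC, EGR3 and KLF2 had no assigned transcript after NaB and 40.9, 1.18 and 2.11 FPKM after the combination, and FOSL1 was at 7.38 FPKM after NaB and had none after the combination. By apportioned depth FOSL1 differed by 1.41 in the other direction. Assembled transcripts thus covered its exons after the combination, although none was assigned to it.

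Levels in the other HepG2 libraries place these values. In the untreated control, after Cur and Pip without NaB, after NaB and after the combination, in this order, EGR1 was at 24.3, 116, 4.43 and 94.7 FPKM and FOS at 7.91, 40.1, 2.82 and 43.8 FPKM. The NaB library held the lowest of the 4 levels for 13 of the 16 early genes listed in all 4, and the highest level was in the combination for 9 and after Cur and Pip without NaB for 6.

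Feedback inhibitors of the MAP kinases were higher in part: of 11 members listed in both libraries, 4 were higher and 0 lower, with a median of 0.73. DUSP5, a nuclear phosphatase that removes the activating phosphates of ERK, was at 3.81 FPKM after NaB and 86.04 FPKM after the combination (4.18). SPRY4, a Sprouty protein that acts upstream of RAF, was at 7.04 FPKM after NaB and 61.2 FPKM after the combination (2.95). DUSP1, which acts on JNK and p38 as well, was at 16.8 and 92.6 FPKM (2.39), and DUSP6, a cytoplasmic ERK phosphatase, at 14.3 and 76.1 FPKM (2.34). For Cur and Pip without NaB, against the untreated control, DUSP5 stood at 3.36, DUSP1 at 1.86 and DUSP6 at 0.37. Without NaB, 3 of the 11 members were called higher, with a median of 0.26. On top of NaB, the members other than these 4 ranged from -0.32 for SPRED2 to 0.79 for SPRY2 and were not called.

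**Figure D2:**
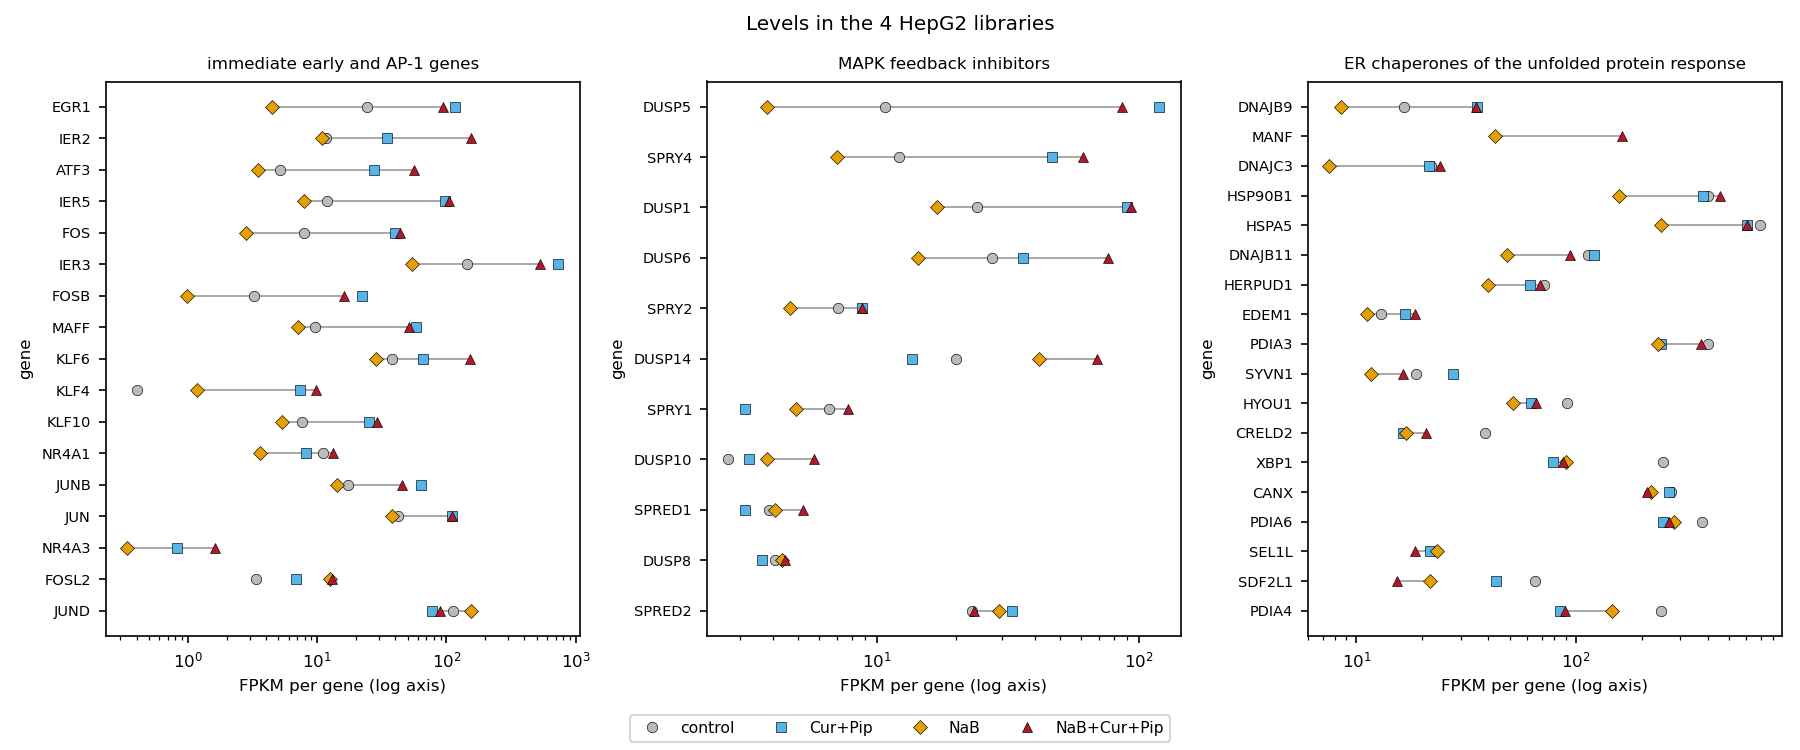
FPKM per gene (log axis) of genes listed in both libraries for the early genes, the MAP kinase inhibitors and the ER chaperones, in the 4 HepG2 libraries (grey circle control, blue square Cur and Pip, orange diamond NaB, red triangle NaB with Cur and Pip), with a grey line joining the NaB and combination values. EGR1 lies at 4.43 and 94.7 FPKM after NaB and the combination, and the orange diamond is the lowest of the 4 marks for 13 of the 16 early genes listed in all 4 libraries.

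Secreted proteins were among the largest differences. Among the highest protein-coding genes by the naming rule, which asks for an FPKM of at least 5, Cufflinks limits that do not overlap and a call by both measures, were AKR1C4, VGF, IL11, KLC1, GADD45B, MMP3, AQP3, DUSP5, EGR1, SNAI1 and RND1. The limits did not overlap for any of the 1091 genes past the threshold and listed in both libraries, so that criterion removed none of them. IL11, a cytokine of the interleukin-6 family, was at 5.11, 63.01, 4.01 and 141 FPKM in the control, after Cur and Pip, after NaB and after the combination, and its difference was 4.82 (4.63 to 5.03). VGF, a secreted peptide precursor known from neuroendocrine cells, was at 2.97, 45.6, 0.972 and 93.9 FPKM and differed by 5.59. MMP3, a matrix metalloproteinase, was at 1.70, 48.2, 2.18 and 59.3 FPKM (4.24). GDF15, a stress-induced hormone of the TGF-beta family, reached the highest level of these, at 333, 1908, 131 and 1015 FPKM (2.94). CCN1 and CCN2, matrix proteins that are targets of YAP and TEAD, were at 8.79 and 86.9 FPKM (3.17) and 28.8 and 188 FPKM (2.66), whereas the list of 12 YAP and TEAD genes held no other call and had a median of 0.40.

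The remaining genes named by this rule encode cellular proteins. AQP3, a water and glycerol channel, was at 7.13, 151, 13.5 and 267 FPKM (4.20), and its difference without NaB was 4.22. SNAI1, a repressor of epithelial genes, was at 3.41, 35.02, 1.28 and 38.6 FPKM (4.12), while CDH1, the epithelial cadherin that it is known to repress, was at 7.20, 1.28, 2.57 and 1.30 FPKM (-0.63) and was not called. RND1, a small GTPase that loosens the actin skeleton, was at 3.78, 25.3, 2.87 and 55.3 FPKM (3.86), and GADD45B, a stress protein that acts on MAP kinase cascades, at 7.68, 80.5, 6.41 and 179 FPKM (4.60, 3.18 by apportioned depth). For 2 of these genes, the values depended on the transcripts used. AKR1C4, an aldo-keto reductase of the liver with near-identical relatives that may share its reads, was at 2.11 FPKM after NaB and 266 FPKM after the combination (6.42), but without single-exon transcripts it was -1.64. KLC1, a kinesin light chain, was at 1.49 FPKM after NaB and 63.5 FPKM after the combination (4.70), and its apportioned difference was 1.83. A transcript assigned to KLC1 in at least 1 of the pair spans more than 1 gene.

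Stress genes under ATF4 and CHOP divided. Of 25 members listed in both libraries, 5 were higher and 2 lower, with a median of 0.63. The higher members were ATF3, GDF15, the cystine transporter subunits SLC7A11 (3.03 and 20.2 FPKM, 2.39) and SLC3A2 (133 and 669 FPKM, 2.32), and DDIT4, an inhibitor of mTORC1 (11.8 and 46.1 FPKM, 1.88, 1.43 by apportioned depth). The enzymes of serine synthesis had values below 0. PSPH, the last enzyme of the pathway, was called lower at 48.4 FPKM after NaB and 14.8 FPKM after the combination (-1.64). PHGDH (-1.15) and PSAT1 (-1.04) stayed within the threshold, as did SHMT2 (-1.11), which uses serine. ATF4 itself was at 447 and 384 FPKM (-0.22). DDIT3, which encodes CHOP, had no assigned transcript after NaB and 43.1 FPKM after the combination, with an apportioned difference of 5.45. The members thus ranged from -1.65 for the hepatic inhibin subunit INHBE to 3.66 for ATF3.

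ER chaperones had a median on either side of 0 with and without NaB. Of 18 members listed in both libraries, 4 were higher and 0 lower, all 4 by both measures, and the median was 0.55. The called members were DNAJB9, a co-chaperone of BiP (8.52 and 35.2 FPKM, 1.93), MANF, a secreted ER stress protein (42.8 and 163 FPKM, 1.90), DNAJC3, an inhibitor of eIF2 kinases (7.52 and 24.02 FPKM, 1.55), and HSP90B1, the ER form of HSP90 (158 and 456 FPKM, 1.52). HSPA5, which encodes BiP, the main ER chaperone, was at 697, 608, 245 and 603 FPKM in the control, after Cur and Pip, after NaB and after the combination, and differed by 1.30, within the threshold. Over the 17 chaperones found in every HepG2 library, Cur and Pip gave a median of 0.45 on top of NaB and of -0.20 without it, and the value with NaB was the larger for 14. The NaB library held the lowest level for 10 of them and the control the highest for 10.

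The promoter of HSP90B1 is shown because genes of this group are known for the endoplasmic reticulum stress element, a bipartite site that was searched on both strands and is in capitals. It is the RefSeq sequence for GRCh38.p14, at chr12:103930160-103930459 on the plus strand, and was chosen after the values were seen.
HSP90B1: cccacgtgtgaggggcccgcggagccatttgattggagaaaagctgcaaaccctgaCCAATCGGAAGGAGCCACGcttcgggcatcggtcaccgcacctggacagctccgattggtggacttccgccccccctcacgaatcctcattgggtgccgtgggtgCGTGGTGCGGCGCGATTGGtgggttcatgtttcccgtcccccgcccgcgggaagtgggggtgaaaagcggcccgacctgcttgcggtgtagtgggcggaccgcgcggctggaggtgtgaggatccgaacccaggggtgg
The element was in 9 of the 24 promoters of the group and in 0.0769% of all 35116 promoters. Among members listed in both libraries and given a promoter, 6 had the element and 11 did not. Their median differences were 0.11 and 0.68. Only this form of the site was counted, within these short promoters, and the 2 medians were not tested against each other. With so few members, the split cannot show whether such sites mark the members that differed.

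Inhibitors of cyclin-dependent kinases, p53 targets and death receptors held calls in both directions or in the higher one alone. CDKN1A, which encodes p21, was at 68.6, 292, 75.01 and 387 FPKM in the control, after Cur and Pip, after NaB and after the combination (2.35, and 2.07 without NaB). CDKN2D and CDKN2B, inhibitors of CDK4 and CDK6, were at 2.15 and 19.2 FPKM (2.68) and at 2.42 and 14.1 FPKM (2.14). CDKN2C, of the same family, went the other way, at 11.2 and 2.99 FPKM (-1.62, -1.32 by apportioned depth), so that of 6 inhibitors listed in both libraries 3 were higher and 1 lower. Of 25 p53 targets, 5 were higher and 0 lower, with a median of 0.09, and besides CDKN1A these included GADD45A, which acts in growth arrest (56.6 FPKM after NaB and 184 FPKM after the combination, 1.68), PMAIP1, which encodes the BH3-only protein NOXA (2.39 FPKM after NaB and 10.99 FPKM after the combination, 1.82), and PLK3, a stress kinase (5.84 FPKM after NaB and 28.5 FPKM after the combination, 2.11). BBC3, which encodes the BH3-only protein PUMA, was at 40.1 FPKM after the combination (0.41 from NaB) and was not called, and the pore-forming protein gene BAX was at 129 and 45.4 FPKM (-1.48).

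Of 13 death receptors and adaptors listed in both libraries, 2 were higher and 1 lower (median -0.12), and all of the called ones belong to the TRAIL system. TNFRSF10D, a decoy receptor without a working death domain, was at 16.3 FPKM after NaB and 87.01 FPKM after the combination (2.34), and TNFRSF10A, the death receptor DR4, at 4.40 FPKM after NaB and 17.5 FPKM after the combination (1.77). TNFRSF10B, which encodes DR5, was within the threshold at 42.6 and 73.4 FPKM (0.77). TNFSF10, the gene of TRAIL, was lower, at 9.96 FPKM after NaB and 1.22 FPKM after the combination (-2.30). Among 14 caspases and inhibitors of apoptosis, BIRC7 alone was called (1.13 and 6.37 FPKM, 1.79).

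Plasma proteins made by hepatocytes were mostly lower. Of 24 coagulation and complement genes in the list, 21 were compared and 19 were listed in both libraries, and of these 12 were lower and 0 higher, all 12 by both measures, against a background of 6.21% lower, and all 19 had a value below 0 with a median of -2.06. Over all 21 compared, 13 were lower and 1 higher, and the higher one was listed after the combination alone. C1S and C1R, the proteases that start the classical complement pathway, were at 83.1 and 4.14 FPKM (-4.03) and at 27.9 and 1.94 FPKM (-3.30). C5, the source of the C5a peptide, was at 32.3 FPKM after NaB and 3.19 FPKM after the combination (-2.99). C3, the most abundant complement protein, was at 541, 139, 541 and 117 FPKM in the control, after Cur and Pip, after NaB and after the combination (-2.20), so that both libraries with Cur and Pip were below both without them. Factors X and XI followed, with F10 at 58.5 FPKM after NaB and 7.37 FPKM after the combination (-2.83) and F11 at 21.00 and 2.90 FPKM (-2.50). F2, which encodes prothrombin, stayed within the threshold at 220.4 and 90.1 FPKM (-1.28), and F12 was at 2.66 and 2.60 FPKM (-0.03).

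Of 16 apolipoprotein and lipoprotein assembly genes in the list, 8 were listed in both libraries, of which 4 were lower and 0 higher, with a median of -1.55. Over all 11 compared, 6 were lower and 1 higher, and the higher one was listed after the combination alone. APOB, the structural protein of very low density lipoprotein, was at 796, 86.9, 721 and 103 FPKM (-2.79). MTTP, which loads lipid onto APOB, was at 27.3, 1.42, 28.1 and 4.19 FPKM (-2.49), and LIPC, hepatic lipase, at 34.4, 5.82, 25.9 and 2.23 FPKM (-3.06). APOE was at 2042 FPKM after NaB and 501 FPKM after the combination (-2.02), whereas APOA1, the main protein of high density lipoprotein, was at 1784 FPKM after NaB and 842 FPKM after the combination (-1.08) and was not called. Acute phase proteins listed in both libraries were lower in 4 of 11 cases with all 11 below 0 (median -1.39), among them fibrinogen gamma FGG (463 and 120.2 FPKM, -1.94) and the haem carrier HPX (39.6 and 11.6 FPKM, -1.69). Over all 17 acute phase genes compared, 6 were lower and 3 higher, against 11.3% and 8.08% of all genes compared. The 3 higher ones were listed after the combination alone. ALB, which encodes albumin, was at 7518 FPKM after NaB and 2989 FPKM after the combination (-1.33), and AFP, alpha-fetoprotein, at 818 and 627 FPKM (-0.38), both within the threshold. In these bulk libraries, fewer cells of a type and less RNA per cell cannot be told apart.

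Liver transcription factors had smaller values. Of 16 listed in both libraries, 3 were lower and 14 had a value below 0 (median -0.63). NR1H4, which encodes the bile acid receptor FXR, was at 36.03, 1.28, 38.9 and 1.23 FPKM in the control, after Cur and Pip, after NaB and after the combination (-4.16), among the 12 lowest protein-coding genes by the naming rule. HNF4A was at 70.7, 26.6, 89.01 and 25.3 FPKM (-1.78, -1.32 by apportioned depth) and CEBPA at 69.8, 25.5, 92.6 and 29.02 FPKM (-1.64, -1.46), so both were past the threshold by summed FPKM and not by apportioned depth. FOXA2, a pioneer factor of the liver, was at 15.2 and 20.4 FPKM (0.40). Of 18 genes of drug metabolism, 5 were lower and 0 higher: SULT2A1, which sulfates bile acids and steroids (138, 4.98, 137 and 5.18 FPKM, -4.48), the glutathione transferase GSTA1 (79.3 and 11.8 FPKM, -2.65), SULT1A1 (53.3 and 8.08 FPKM, -2.58) and the cytochromes CYP3A7 (-2.64) and CYP3A5 (-1.86). The GSTA, SULT1A and CYP3A genes have close relatives that may share their reads. CYP1A1, the target of the aryl hydrocarbon receptor, was at 23.6 and 21.3 FPKM (-0.14). The members called in this list are those of conjugation and of the CYP3A family, and the efflux pumps ABCB1 (0.41), ABCC2 (-0.27) and ABCG2 (0.57) were not called.

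**Figure D3:**
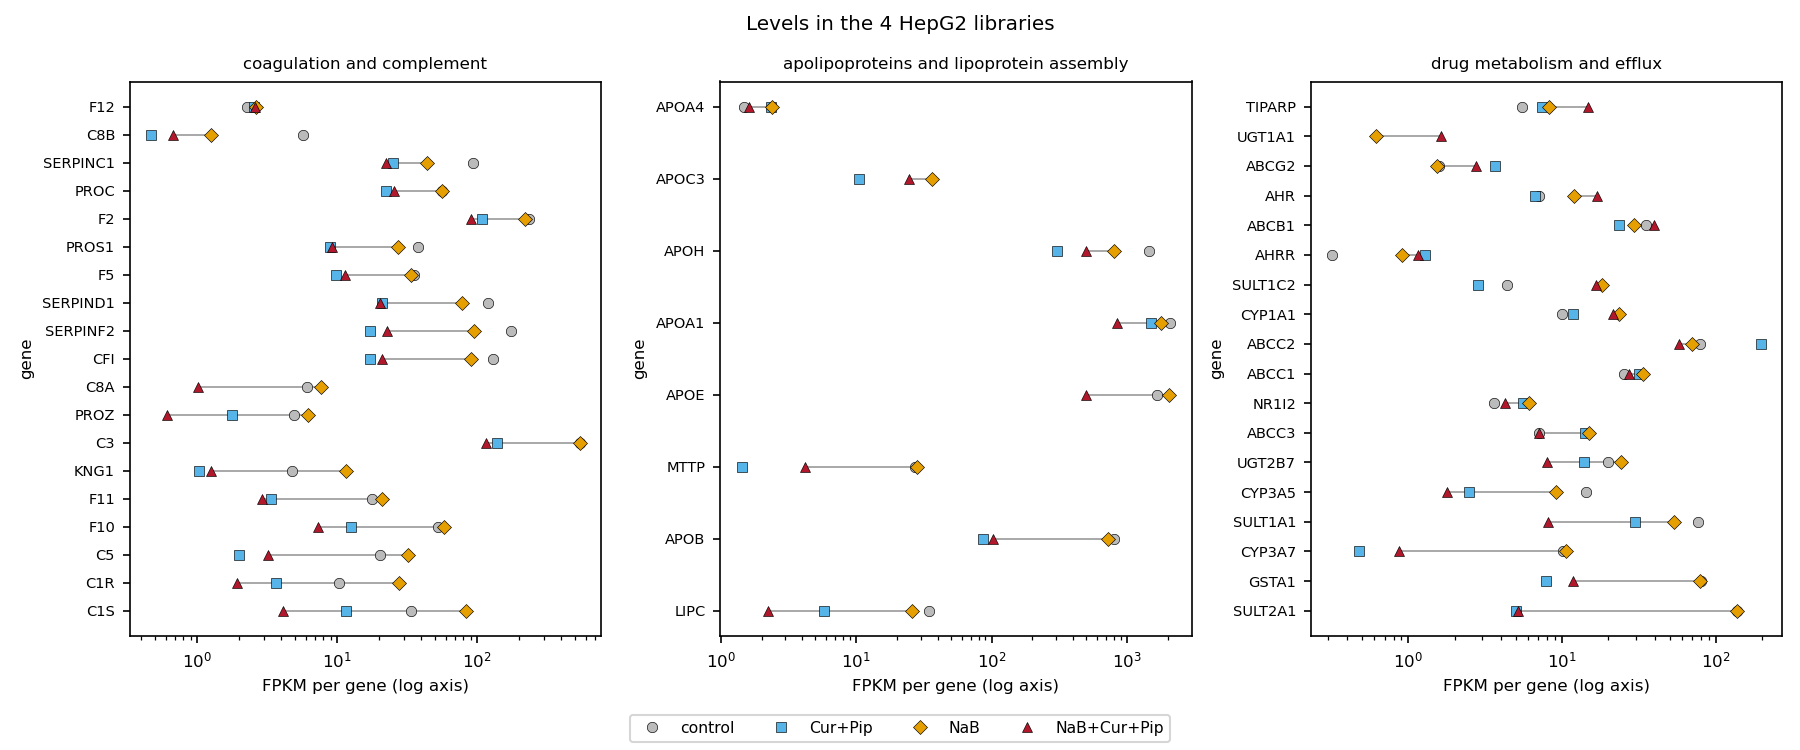
FPKM per gene (log axis) of members listed in both libraries for coagulation and complement, lipoprotein assembly and drug metabolism, in the 4 HepG2 libraries with the marks defined in the legend, and a grey line joining NaB and the combination. All 19 coagulation and complement genes and all 8 lipoprotein genes lie lower after the combination than after NaB, whereas the drug metabolism genes lie on both sides.

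The 12 lowest protein-coding genes by the naming rule were RPS29, RPS28, RAB17, MZT2A, HAMP, SULT2A1, ODAM, FAM20A, RLIM, NR1H4, PLA2G2A and TRIM50. HAMP, which encodes the iron hormone hepcidin, was at 72.3, 11.5, 143 and 4.94 FPKM in the control, after Cur and Pip, after NaB and after the combination (-4.60). RAB17, a GTPase of polarised epithelia, was at 124, 12.1, 200.4 and 4.34 FPKM (-5.24), and FAM20A, a pseudokinase of the secretory pathway, at 27.3, 0.727, 35.2 and 0.656 FPKM (-4.45). PLA2G2A, a secreted phospholipase of the acute phase, was at 4.41, 4.72, 82.2 and 3.73 FPKM (-4.13), so that the NaB library stood above the other 3. ODAM was at 73.3 and 2.35 FPKM (-4.47) and TRIM50 at 28.7 and 0.760 FPKM (-4.08). The summed and apportioned differences stood far apart for RPS29 (-7.13 and -3.38), MZT2A (-5.19 and -1.53) and RLIM (-4.27 and -1.67, and 1.23 without single-exon transcripts). RPS29 and RPS28 belong to the small ribosomal subunit, are short and have processed copies in the genome that may share their reads. Of 62 ribosomal protein genes listed in both libraries, 13 were lower and 0 higher (9 by both measures), with a median of -0.40.

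NRF2 is the transcription factor of the antioxidant response, and curcumin is known as an electrophile that can release it from its inhibitor. Of 24 targets listed in both libraries, 3 were higher and 1 lower, with a median of 0.10. TXNRD1, thioredoxin reductase, was at 72.7, 348, 73.3 and 263 FPKM in the control, after Cur and Pip, after NaB and after the combination (1.83, and 2.24 without NaB). HMOX1, haem oxygenase, was at 38.3, 307, 51.9 and 83.9 FPKM, a difference of 0.68 with NaB and 2.97 without it. OSGIN1 (0.81 with NaB and 2.65 without), SRXN1, sulfiredoxin (0.78 and 2.19), and BLVRB, biliverdin reductase (0.22 and 2.35), showed the same order. NQO1 was at 312, 204, 264 and 181 FPKM and had values below 0 in both settings (-0.55 and -0.61). GCLM, the modifier subunit of glutathione synthesis, was past the threshold by summed FPKM (2.10) and at 0.02 by apportioned depth. AKR1C1, whose near-identical relatives may share its reads, was at 3206 and 956 FPKM (-1.74, -0.15 by apportioned depth). Over the 23 targets found in all 4 libraries, the medians were 0.22 with NaB and 0.65 without it, 3 and 8 were called higher, and the value with NaB was the larger for 5.

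Heat shock proteins of the cytosol showed selective calls, with 3 of 17 higher and 2 lower. HSPB8 (6.90 and 30.4 FPKM, 1.99) and BAG3 (24.5 and 87.6 FPKM, 1.80), which work together in chaperone-assisted autophagy, and HSPH1, a large HSP70 relative (44.5 and 165 FPKM, 1.86), were higher. CRYAB, a small heat shock protein, was lower (21.3 and 1.85 FPKM, -2.97). HSPE1, a mitochondrial co-chaperonin that this list also holds, was lower as well (272 and 18.01 FPKM, -3.84). It is a short gene with many processed copies. Its apportioned depth was 272 after NaB and 0 after the combination, so no fold is given by that measure. HSPA6, a strictly inducible HSP70, had no assigned transcript in the control or after NaB and was at 272 FPKM after Cur and Pip and 224 FPKM after the combination. HSPA8, its constitutive relative, was at 571 and 575 FPKM (0.01). Of 9 polyamine genes listed in both libraries, 2 were higher and 0 lower (median 0.15), and of 20 genes of iron handling and ferroptosis, 4 were higher and 1 lower (median -0.08). Besides SLC7A11 and SLC3A2, which the iron list shares, these were ACSL3, a fatty acid activating enzyme, at 33.1 and 124 FPKM (1.88), SAT1, which starts polyamine breakdown, at 134, 324, 103 and 712 FPKM (2.77), ODC1, which starts polyamine synthesis, at 117, 152, 141 and 511 FPKM (1.85), and STEAP3, a ferrireductase, at 22.7, 4.86, 25.1 and 5.33 FPKM (-2.04).

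Few cell cycle genes were past the threshold when Cur and Pip were added to NaB. Of 27 genes of G2 and mitosis listed in both libraries, 0 were higher and 1 lower, with a median of -0.25, and of 31 genes of G1 and S, 1 was higher and 2 lower, with a median of 0.13. CENPA, the centromere histone, was the 1 lower mitotic gene (14.9, 1.39, 18.9 and 4.80 FPKM in the control, after Cur and Pip, after NaB and after the combination, -1.78). TOP2A, topoisomerase II, was at 71.1, 8.77, 42.6 and 19.9 FPKM, which gave -1.06 with NaB and -2.88 without it. CDK1, the mitotic kinase, was at 27.7, 4.58, 14.5 and 16.2 FPKM, which gave 0.15 and -2.36. In all 27 mitotic genes the difference with NaB was the larger on the signed scale, the medians were -0.25 with NaB and -1.45 without it, and 1 and 13 were called lower. Cur and Pip without NaB gave the lowest of the 4 levels for 22 of the 27. The genes of G1 and S that were called with NaB were CCND1, cyclin D1 (52.3 and 12.6 FPKM, -1.97), its kinase CDK4 (149 and 28.04 FPKM, -2.37) and CCNE2, cyclin E2 (1.09 and 5.25 FPKM, 1.58). The medians of this list over the 30 genes listed in all 4 libraries were 0.18 with NaB and -0.96 without it.

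Lipid synthesis genes also had the larger medians with NaB. Of 19 genes of sterol synthesis and uptake listed in both libraries, 5 were higher and 1 lower, 2 of the higher ones by both measures, with a median of 0.26. HMGCS1, the first committed enzyme, was at 62.97, 43.7, 31.1 and 94.2 FPKM (1.57 with NaB and -0.52 without), and MSMO1, a later oxidase, at 74.7, 51.1, 34.5 and 106 FPKM (1.59 and -0.54), in the order control, Cur and Pip, NaB and combination. LSS, which closes the sterol ring, was lower (55.4 and 10.9 FPKM, -2.25, -1.42 by apportioned depth). Over 18 genes listed in all 4 libraries the medians were 0.40 with NaB and -0.80 without it, and over 14 genes of fatty acid synthesis 0.09 and -1.12. MLXIPL, which encodes the carbohydrate sensor ChREBP, departed from this and was lower in both settings, at 32.8, 5.35, 46.6 and 3.89 FPKM (-3.28 and -2.41). SCD, the stearoyl desaturase, was at 327, 56.9, 148 and 101 FPKM (-0.55 and -2.50). Metallothioneins and their regulators were at a median of 0.42 with NaB and -0.93 without it over 6 genes, with MT1G at 216, 42.1, 43.2 and 57.4 FPKM, and these copies may share reads.

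**Figure D4:**
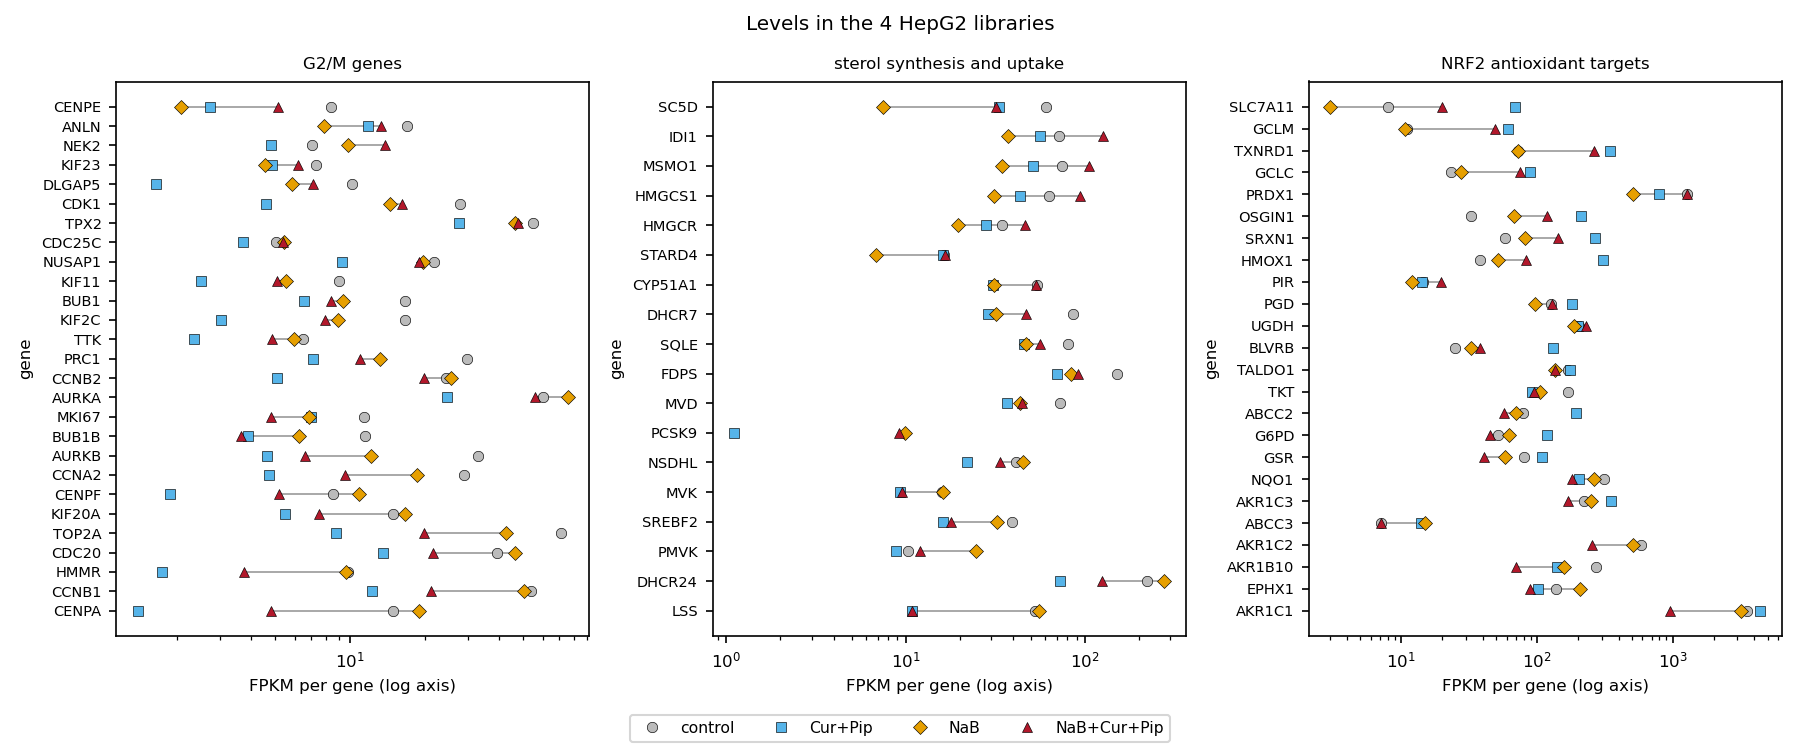
FPKM per gene (log axis) of members listed in both libraries for the G2 and mitosis, sterol and NRF2 lists, with 1 sterol gene not drawn, in the 4 HepG2 libraries with the marks defined in the legend. The blue squares of Cur and Pip without NaB are the lowest marks for 22 of the 27 mitotic genes, and the median difference of the combination from NaB over these genes is -0.25.

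Over all genes, the differences made by Cur and Pip with and without NaB were compared across 4 separate HepG2 libraries. Among the 9943 genes listed in all 4, 388 were higher and 606 lower with NaB, and 499 and 723 without it. The background of calls without NaB was 5.23% higher and 7.32% lower of the 10861 genes listed in both of those libraries. 165 genes were higher in both settings, which is 42.5% of those higher with NaB and 33.1% of those higher without it, and 300 were lower in both, which is 49.5% and 41.5%. Across these genes the differences correlated with Pearson r = 0.58 and Spearman rho = 0.55 (r = 0.62 by apportioned depth), a description over genes that share libraries and assembly and are not independent. In the opposite directions stood 7 genes that were higher with NaB and lower without and 12 that were lower with NaB and higher without.

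The protein-coding genes with the largest differences between the settings often had a smaller difference by apportioned depth. The 6 highest for the value with NaB minus that without were KLC1, METAP1D, PTP4A1, DLGAP4, SNRPE and SERF2, from 6.56 for KLC1 to 4.49 for SERF2, and by apportioned depth these were 2.12 and 1.61. The 6 lowest were RPS28, MZT2A, RPS29, RPS24, SELENOP and RLIM, from -9.31 for RPS28 to -5.35 for RLIM, with apportioned values of -6.54 and -0.98. SNRPE, a core protein of the spliceosome, was at 167, 21.2, 46.5 and 149 FPKM in the control, after Cur and Pip, after NaB and after the combination (4.58, 3.42 by apportioned depth). RPS28 was at 37.7, 583, 690.2 and 15.4 FPKM (-9.31, -6.54), a high level in 2 of the libraries and a low one in the other two. SELENOP, a secreted selenium carrier of the liver, was at 2.48, 57.2, 314 and 108 FPKM (-5.59, -1.18). Of these 12 genes, SNRPE, RPS28, RPS29 and KLC1 were past 2 in size by apportioned depth.

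**Figure D5:**
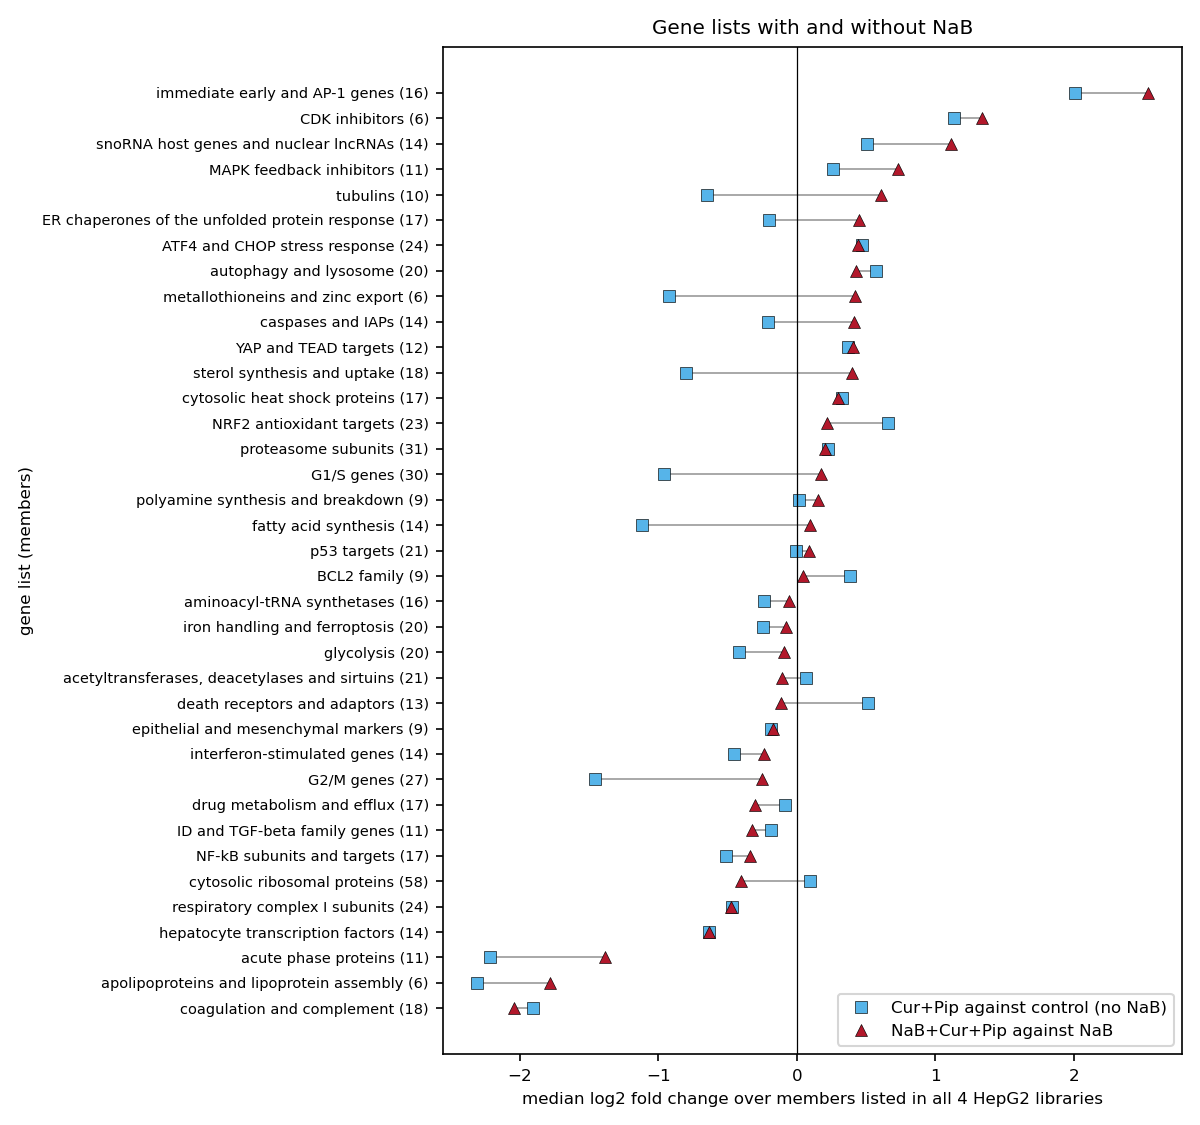
Median log2 fold change of each gene list over members listed in all 4 HepG2 libraries (number in brackets), for NaB, Cur and Pip against NaB (red triangle) and for Cur and Pip against the control (blue square). The red and blue marks lie close for coagulation and complement (-2.04 and -1.90) and apart for mitotic genes (-0.25 and -1.45), G1 and S genes (0.18 and -0.96) and sterol synthesis (0.40 and -0.80).

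Long non-coding RNAs were higher more often than lower, with 35 higher and 19 lower of 474 listed in both libraries, against 372 and 617 of 9891 protein-coding genes. The 4 highest by the naming rule were MIR22HG, ENSG00000291067, NMRAL2P and ZFAS1, and the 4 lowest CASTOR3P, HAGLR, ENSG00000286271 and MIR1915HG. MIR22HG, the host of miR-22, was at 3.89, 74.2, 5.50 and 92.2 FPKM in the control, after Cur and Pip, after NaB and after the combination (3.84). ZFAS1, a host of small nucleolar RNAs, was at 153, 26.01, 21.9 and 181 FPKM (2.99 with NaB and -2.52 without), so it was higher in one setting and lower in the other. NEAT1 and MALAT1, which are kept in nuclear bodies, were at 8.54 and 45.6 FPKM (2.29) and at 41.7 and 189 FPKM (2.15). HAGLR, antisense to the HOXD cluster, was at 38.1 and 4.86 FPKM (-2.74).

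Under the Hep3B label, fewer genes were past the threshold for the same addition, 2.04% higher and 1.49% lower of the 10987 genes listed in both. Of the 30 hepatocyte markers, 2 reached an FPKM of 1 in each of those libraries. Hep3B is known as a hepatocyte-derived line, so these levels go against the label, and few plasma protein genes could be followed there. The early genes had a median of 0.41 over 19 members with 4 higher, against 2.38 over 17 in HepG2, and the ER chaperones had 0.93 against 0.55. ATF3 was past the threshold under both labels (2.19 for Hep3B), as were SNAI1 (3.27), GADD45B (3.51), JUN (2.01) and GADD45A (3.12). EGR1 (0.41) and DUSP5 (-0.02) were not past it there. AQP3 was past it in the other direction, at 173 FPKM after NaB and 54.7 FPKM after the combination under the Hep3B label (-1.64, -1.17 by apportioned depth). GDF15 was at 266 and 94.5 FPKM there (-1.48, -1.85 by apportioned depth). Whether the responses differ between the labels was not tested. The NaB dose differed too.

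Some genes of these groups had an assigned transcript in 1 of the pair only, so that they have no fold here. After the combination alone were listed FTL, the ferritin light chain (26972 FPKM, with an apportioned difference of 3.25), and ZFAND2A, an arsenite-inducible partner of the proteasome (52.02 FPKM, 2.66). After NaB alone were listed CALR, the ER chaperone calreticulin (436 FPKM, -0.11), MCL1, a survival protein of the BCL2 family (34.97 FPKM, 0.04), PPP1R15A, the stress phosphatase subunit GADD34 (20.4 FPKM, 1.60), and HSPA1A, an inducible HSP70 with a near-identical neighbour (492 FPKM, -8.03). For CALR and MCL1 the apportioned depth was thus nearly equal in both libraries although the summed FPKM was listed at 0 in 1 of them. PPP1R15A had a positive apportioned difference although it was listed after NaB alone. These 6 genes were named after their values were seen.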

How the data were processed

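RNA was made into directional libraries, and per the submitters' processing notes reads were checked with FastQC, aligned with STAR to GRCh38 and assembled with Cufflinks, with Cuffdiff also named there (versions: not given in the sources used here). Each deposited file lists the transcripts of 1 library with the FPKM and its 95% confidence limits, as the authors' Cufflinks run gave them. From these, transcripts were assigned to genes of GENCODE release 44 with bedtools 2.31.1, and values were summed in Python 3.11.15 with pandas 2.3.3, as described above. The number of fragments was estimated from coverage and length, and limits cover the counting and assignment of reads within a library only. Limits of a gene were combined from those of its transcripts, as the root of the summed squares of their widths. A gene past 1.5 on the log2(FPKM + 1) scale differed about 2.83 times or more. The code was tested on simulated data.

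The comparison, its 41 gene lists and the naming rule were chosen with earlier results of these data known. The rule named 12 protein-coding and 4 long non-coding genes in each direction, up to 3 list members in each direction, 6 genes in each direction for the difference with and without NaB, the early list whole, and GADD45A, BBC3, CDKN1A, PMAIP1 and GAPDH. A few genes that the rule or the lists hold are not reported here, though list counts and medians include them. Other list members were named after their values were seen, to complete the account of a list. Promoters came from RefSeq (GRCh38.p14), in which 16 of 21 early genes and 18 of 19 ER chaperone genes matched. Alternatives were another pseudocount, filter, scaling, transcript set, biotype and threshold.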

Additional observations from a re-analysis of the deposited data

Results flagged for a closer look

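Between the comparisons with and without NaB, 7 genes were higher with NaB and lower without, and 12 were lower with NaB and higher without, each past the threshold in both. Of these, 2 genes, RPS28 and ZFAS1, were so by apportioned depth in both comparisons as well. Between the HepG2 and Hep3B labels, 12 genes were higher in HepG2 and lower in the libraries labelled Hep3B when Cur and Pip were added to NaB, and 13 were lower in HepG2 and higher there. Of these, 4 genes, H2AC6, IL11, RPS29 and SCAT8, were so by apportioned depth in both. IL11, the cytokine that stood among the highest in HepG2, was at 13.6 FPKM after NaB and 2.64 FPKM after the combination under the Hep3B label, a difference of -2.01. RPS29, the lowest protein-coding gene in HepG2 by the naming rule and summed FPKM, was at 47.6 and 575 FPKM there, a difference of 3.57. H2AC6, a histone H2A gene, was at 21.8 FPKM after NaB and 125 FPKM after the combination in HepG2 (2.46) and, under the Hep3B label, at 74.2 and 20.8 FPKM (-1.79). None of these differences was tested.

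Transcripts that were assigned to no gene are outside the comparison. They made up 29.5% of the transcripts in the combination library, 19.9% after NaB and 14.5% in the untreated control, and they were not analysed further.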

How the results depend on the processing

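The counts of 1011 higher and 1415 lower genes became 416 and 689 with a pseudocount of 5, 430 and 661 over genes listed in both libraries, 1926 and 2485 with a threshold of 1, and 617 and 903 with a threshold of 2, and the higher count became 1670 as TPM. The counts shared with Cur and Pip without NaB, 323 higher and 524 lower, became 165 and 300 over genes listed in all 4 HepG2 libraries, 602 and 791 with a pseudocount of 0.1, and 126 and 233 with a pseudocount of 5. The other alternatives moved these counts by less than 1.5 times. The 13 list medians of at least 0.5 in size kept their sign under all 11 alternatives that retain all gene types, as did 12 of 12 over protein-coding genes. Of 129 named genes past the threshold, 129 stayed past it with a pseudocount of 0.1, 105 with 5, 125 with median-of-ratios scaling, 126 as TPM, 118 by the largest transcript, 122 without single-exon transcripts and 108 by apportioned depth. Many named genes were taken for large differences, and some by a rule that asks for a call by apportioned depth. Their counts were thus partly fixed in advance. Among all 1091 genes past the threshold and listed in both libraries, 723 were past it by apportioned depth. Of the named genes, sign was reversed without single-exon transcripts for AKR1C4 (-1.64), RLIM (1.23) and TUBA1A (4.91), and by apportioned depth for EPB41L4A-AS1 (0.045), PGK1 (-0.11) and TUBA1A (0.17), and the cause was not tested. With 1 library per condition, no library could be left out. The labels carry no replicate numbers, and no paired fit was run. Depth limits genes near 1 FPKM, where assembly can miss a transcript.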

Other observations

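Beyond the groups above, 2 genes of autophagy were called higher after the combination, but neither had its highest level there. MAP1LC3B, which encodes the autophagosome protein LC3B, was at 29.9 FPKM after NaB and 177 FPKM after the combination (2.52, 2.56 by apportioned depth), and GABARAPL1, of the same protein family, at 56.2 FPKM after the combination (2.14 from NaB, 2.07). These were the higher ones of 21 autophagy and lysosome genes listed in both libraries, of which 1 was lower, with a median of 0.47. After Cur and Pip without NaB, MAP1LC3B was at 214 FPKM (1.51 from the control) and GABARAPL1 at 106 FPKM (3.24). Of the 20 genes of this list seen in every HepG2 library, 2 were called higher with NaB and 6 without it. In the same order, 1 and 0 were called lower, and the medians were 0.43 and 0.57. Tubulin genes divided. TUBB2A was at 32.04 FPKM after NaB and 202 FPKM after the combination (2.62, 2.61) and TUBB3, the neuronal beta-tubulin, at 60.8 FPKM after NaB and 347 FPKM after the combination (2.49, 2.08), while TUBA1A was at 163 FPKM after NaB and 29.04 FPKM after the combination (-2.45) and at 0.17 by apportioned depth. Of 10 tubulins 4 were higher and 1 lower, 3 and 0 by both measures, and these copies may share reads.

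Genes of NF-kB, interferon and respiration held few calls. Of 17 NF-kB subunits and targets listed in both libraries 1 was higher and 2 lower (median -0.34), and NFKBIA, the inhibitor that NF-kB induces, was at 254 FPKM after NaB and 100.2 FPKM after the combination (-1.33). Of 14 interferon-stimulated genes 0 were higher and 2 lower (median -0.24). Of 26 subunits of respiratory complex I 21 had a value below 0 (median -0.49), 1 of them past the threshold, and of 32 proteasome subunits 1 was higher and 1 lower (median 0.22). Among 20 glycolysis genes 1 was higher and 2 lower, and only PFKL was called by both measures. It was at 70.6 FPKM after NaB and 10.01 FPKM after the combination (-2.70, -2.42 by apportioned depth). The remaining calls depended on the measure. GAPDH, often used as a reference gene, was at 629 FPKM after NaB and 216 FPKM after the combination (-1.54) but at -0.15 by apportioned depth, and PGK1 was at 1.71 and -0.11 by the same 2 measures, while ENO1 was at 673 and 589.5 FPKM (-0.19).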
